A study of Mus musculus with 6 samples.

Results

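The 39 listed genes of the interferon response and of MHC class I antigen presentation were followed in sorted cells of mouse mammary tumors. A member was taken as the row of the deposited table whose symbol equals a listed name, and all 39 names were found among the 14897 genes of the table. The cells came from 2 spontaneous mammary tumors of FVB/N mice that carry the polyoma virus middle T antigen under the MMTV promoter, which directs the oncogene mainly to mammary epithelium. The labels do not state whether both tumors came from 1 mouse. Each tumor was dissociated and sorted into CD29hi CD61+ breast cancer stem cells (BCSCs; P1), ALDH+ BCSCs (P2) and the remaining bulk cells (P0), and poly(A) RNA of each population was sequenced, so that the study holds 1 library for each population and tumor. Neither a wild-type mouse nor an interferon-treated sample was compared here, and the bulk cells carry the same oncogene as the BCSCs.

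Type I interferons bind a receptor whose kinases activate a transcription factor complex that contains STAT2 and IRF9 and switches on interferon-stimulated genes through a promoter sequence called the interferon-stimulated response element (ISRE). Interferon gamma acts through a promoter sequence called the gamma-activated site (GAS) and raises the immunoproteasome, the TAP peptide transporter and the MHC class I chains, which together cut, carry and display peptides to cytotoxic T cells. Tumor cells can keep parts of this program active without added interferon, for example when cytosolic nucleic acids are sensed.

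Promoter windows that carry the ISRE core are shown first, since this sequence, found in part of the members, is the one through which type I interferon acts. RefSeq windows of 250 bases before to 50 bases after a start site (build GRCm38.p6) were matched by symbol for 31 of the 39 members. The ISRE core, GAAANNGAAA on either strand, was present in 13 of these 31 members (41.9%), against 3.99% of the 27025 genes with a window. Matches can overlap each other. In the sequences below, which show 5 of these windows on the strand of the gene, capitals mark the ISRE core matches and the remaining bases are in lower case.
Isg15, chr4:156200769-156201068, strand -: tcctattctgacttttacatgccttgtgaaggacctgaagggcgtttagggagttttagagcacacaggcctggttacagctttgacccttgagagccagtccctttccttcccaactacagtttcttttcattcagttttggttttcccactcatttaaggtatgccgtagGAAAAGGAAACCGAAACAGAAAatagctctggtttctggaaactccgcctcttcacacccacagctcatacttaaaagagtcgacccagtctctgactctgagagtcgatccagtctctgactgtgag
Ifit1, chr19:34640639-34640938, strand +: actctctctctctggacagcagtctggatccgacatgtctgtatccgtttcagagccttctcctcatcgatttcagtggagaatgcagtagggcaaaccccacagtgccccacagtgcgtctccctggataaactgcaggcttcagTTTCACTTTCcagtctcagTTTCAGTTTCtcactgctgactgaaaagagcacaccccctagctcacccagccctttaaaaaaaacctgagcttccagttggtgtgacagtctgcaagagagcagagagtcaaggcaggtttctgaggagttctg
Rsad2, chr12:26456403-26456702, strand -: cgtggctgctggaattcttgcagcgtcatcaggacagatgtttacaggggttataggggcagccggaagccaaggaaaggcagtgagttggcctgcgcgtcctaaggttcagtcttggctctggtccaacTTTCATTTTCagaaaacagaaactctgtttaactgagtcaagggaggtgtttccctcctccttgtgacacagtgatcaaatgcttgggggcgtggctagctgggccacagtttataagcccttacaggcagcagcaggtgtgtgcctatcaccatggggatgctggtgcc
Oas1a, chr5:120907476-120907775, strand -: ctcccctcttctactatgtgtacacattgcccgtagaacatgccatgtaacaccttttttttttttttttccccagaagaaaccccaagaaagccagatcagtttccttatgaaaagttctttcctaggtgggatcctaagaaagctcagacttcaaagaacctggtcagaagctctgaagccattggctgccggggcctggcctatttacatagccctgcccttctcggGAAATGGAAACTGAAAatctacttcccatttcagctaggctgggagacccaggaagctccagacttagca
B2m, chr2:122147437-122147736, strand +: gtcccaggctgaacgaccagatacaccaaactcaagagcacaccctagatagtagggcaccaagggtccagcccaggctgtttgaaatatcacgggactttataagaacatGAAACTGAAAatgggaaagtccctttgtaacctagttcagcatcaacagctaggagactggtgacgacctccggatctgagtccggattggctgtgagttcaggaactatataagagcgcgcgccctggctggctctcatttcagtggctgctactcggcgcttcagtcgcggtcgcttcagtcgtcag
*Isg15* encodes a ubiquitin-like modifier, and its window held 3 overlapping matches, which began 78, 72 and 66 bases before the start site. The windows of *Ifit1* (matches beginning 104 and 85 bases before the start) and *Oas1a* (20 and 14 bases before) held 2 matches each. *Rsad2* had a match 120 bases before its start and *B2m*, the light chain of MHC class I, had one 139 bases before. The other members with a match were *Stat2*, *Ddx58*, *Ifih1*, *Eif2ak2*, *Ifit3*, *Bst2*, *Gbp2* and *Gbp3*. The GAS core, TTCNNNGAA, which reads the same on both strands, was found in 9 of the 31 members (29%; *Irf1*, *Oas1a*, *Eif2ak2*, *Adar*, *Ifit2*, *Bst2*, *Samhd1*, *Ifi35* and *Psmb8*), against 9.55% of all genes with a window. A match is a description of these letters and not a measured binding site. *Psmb9* and *Tap1* face away from each other, with 225 bases between their start sites, and their windows overlap by 275 bases.

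Read depth and cell content bear on all values that follow. The deposited values are RPKM (reads scaled by gene length and by library size), so levels of different genes can be set side by side. The 6 libraries held 19037070 to 48008802 reads in genes, of which the 39 members took 0.241% to 0.522%. Genes without any read numbered 1947 to 3904 in the libraries of tumor 1 and 360 to 759 in those of tumor 2, although tumor 1 was read more deeply in every population. Luminal epithelial markers (*Epcam*, *Krt8*, *Krt18*, *Krt19*, *Cldn4* and *Elf5*) were detected in every library at 58.8 to 7735 RPKM. Of 36 leukocyte markers, 13 were among the genes of the table, and their summed level was 7.32, 10.5 and 17.0 RPKM in P0, P1 and P2 of tumor 1 and 25.7, 38.6 and 22.5 RPKM in tumor 2. In tumor 1 the leukocyte markers *Laptm5*, *Cd3e*, *Cd79a*, *Emr1*, *C1qa*, *C1qb* and *C1qc* were listed at 0 in all 3 libraries. None of the 10 interferon ligand genes looked for was among the genes of the table.

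All 39 members passed the filter of at least 1 RPKM in at least 2 libraries, as did 12512 genes in all. Mean levels over the 6 libraries were highest for the MHC class I chains, *Tapbp* (peptide loading), *Isg15* and *Rsad2*, and lowest for *Psmb9*. Between 16 and 55547 reads stood behind every member value except that of *Psmb9* in P0 of tumor 1, which was listed at 0.

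**Figure D1:**
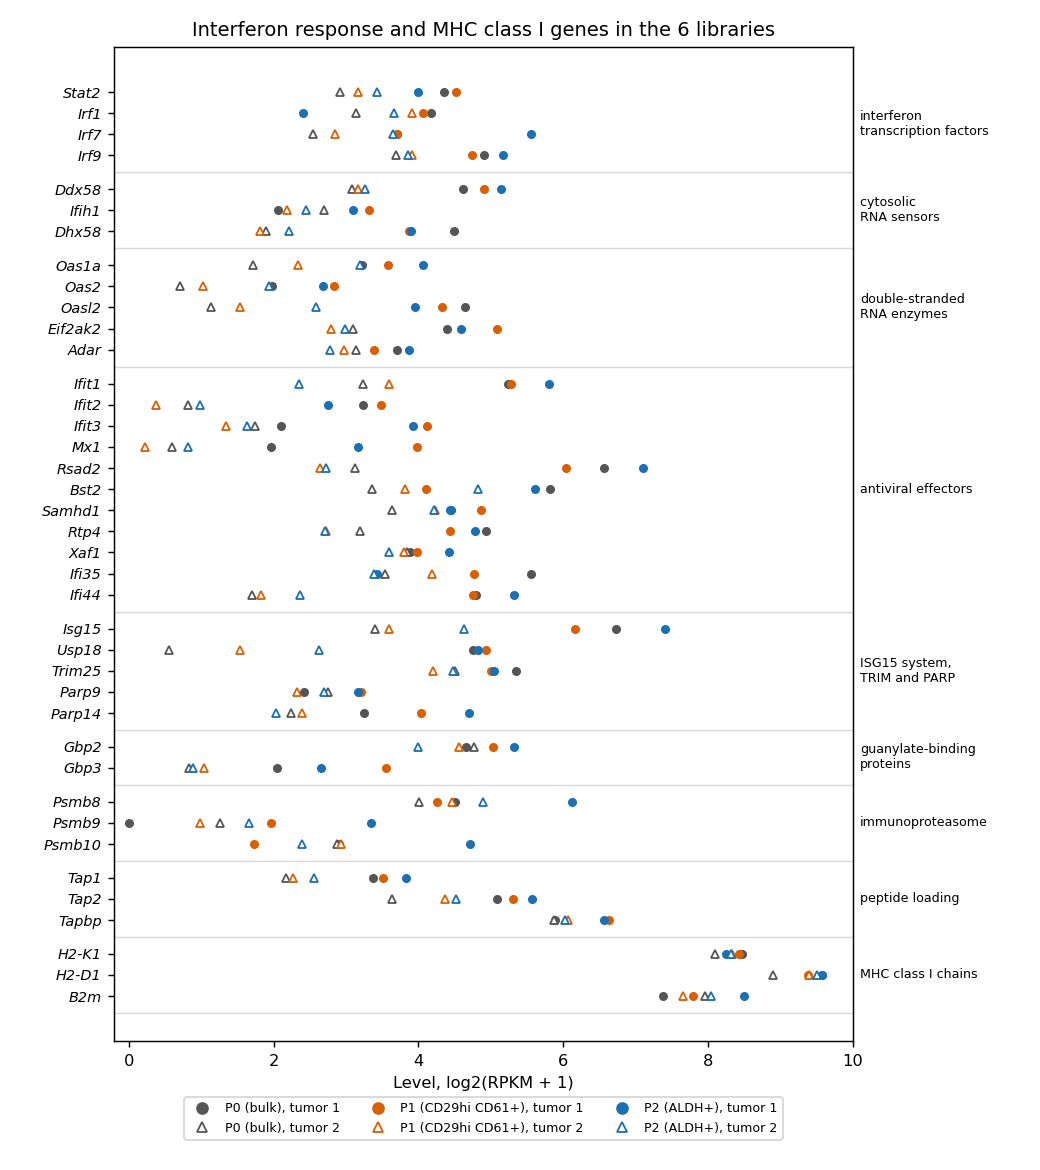
Level of each of the 39 members in the 6 libraries, on a log2(RPKM + 1) axis, grouped by role. Filled circles are tumor 1 and open triangles tumor 2, and colors mark the population. The MHC class I chains stand apart on the right, and for most other members the circles lie to the right of the triangles.

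Most of these genes stood higher in tumor 1 than in tumor 2, whichever population was read. In 29 of the 39 members, tumor 1 stood above tumor 2 in all 3 populations, which was so for 13.7% of all genes tested. No member stood below in all 3 populations, whereas 21.6% of all genes did. For 26 members even the lowest tumor 1 library was above the highest tumor 2 library, against 8.22% of all genes. A gene listed at 0 in a tumor 1 library cannot be counted as higher in tumor 1 throughout. Genes without reads were more frequent in tumor 1. The 13.7% and 8.22% may thus be too low as a background, and the 21.6% too high. Median differences of the members, tumor 1 minus tumor 2, were 1.22 in P0, 1.15 in P1 and 1.31 in P2 on the log2(RPKM + 1) scale, beside -0.17, 0.03 and -0.21 over all genes tested. This description was chosen after the values had been seen. It has no test, because there is 1 tumor on each side, and the tumor cannot be told apart from anything else in which its libraries differed, including depth and the number of genes without reads.

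*Rsad2*, which encodes viperin, an antiviral enzyme of the endoplasmic reticulum, stood at 93.2, 64.9 and 136 RPKM in P0, P1 and P2 of tumor 1 and at 7.67, 5.23 and 5.60 RPKM in tumor 2. Every tumor 1 library was above every tumor 2 library, and the tumors differed by ratios of 12.1, 12.4 and 24.3 in P0, P1 and P2. The levels of *Isg15*, the ubiquitin-like modifier gene whose promoter is shown above, were 105 RPKM in P0, 70.9 in P1 and 168 in P2 of tumor 1, and 9.52, 11.1 and 23.8 RPKM in the same order in tumor 2. The tumors differed 11.0-fold in P0, 6.39-fold in P1 and 7.08-fold in P2 for this gene. For *Usp18*, which encodes the protease that removes ISG15 and dampens the interferon receptor, tumor 1 gave 26.0 RPKM in P0, 29.5 in P1 and 27.4 in P2, and tumor 2 gave 0.464, 1.91 and 5.19 RPKM. Its difference between the tumors narrowed from 56.0-fold in P0 to 15.5-fold in P1 and 5.27-fold in P2, and 16 reads stood behind the P0 value of tumor 2. In tumor 1, *Mx1*, a dynamin-like GTPase gene of the antiviral response, had 2.90, 14.8 and 7.96 RPKM in P0, P1 and P2, and in tumor 2 it had 0.510, 0.171 and 0.763 RPKM. The ratio in P1 rests on 16 reads in tumor 2. Laboratory mouse strains often carry a defective *Mx1* allele, and these levels say nothing about its protein.

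*Ifit1*, which encodes a protein that binds foreign RNA ends, stood at 36.8, 37.8 and 55.1 RPKM in P0, P1 and P2 of tumor 1 and at 8.44, 11.0 and 4.10 RPKM in tumor 2. Here the P2 library of tumor 2 was the lowest of the 6 and that of tumor 1 the highest. The levels of *Dhx58*, which encodes LGP2, a regulator of RNA sensing, were 21.4 RPKM in P0, 13.6 in P1 and 13.8 in P2 of tumor 1, and 2.71, 2.50 and 3.64 RPKM in the same order in tumor 2. For *Ddx58*, which encodes the RNA sensor RIG-I, tumor 1 gave 23.5 RPKM in P0, 29.1 in P1 and 34.4 in P2, and tumor 2 gave 7.48, 7.98 and 8.62 RPKM. For both sensor genes the tumor 1 libraries did not overlap with those of tumor 2. The third sensor gene, *Ifih1* (MDA5), ranged from 3.18 to 9.01 RPKM and did not follow this order, since P0 of tumor 1 held its lowest value.

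The order of the tumors was the same for a kinase, a chaperone and a ligase gene of the response. In tumor 1, *Eif2ak2*, which encodes the RNA-dependent kinase PKR that halts translation, had 20.0, 32.9 and 23.01 RPKM in P0, P1 and P2, and in tumor 2 it had 7.57, 5.91 and 6.88 RPKM. *Rtp4*, an interferon-induced chaperone gene, stood at 29.7, 20.6 and 26.4 RPKM in P0, P1 and P2 of tumor 1 and at 8.14, 5.62 and 5.54 RPKM in tumor 2. The levels of *Trim25*, which encodes the ubiquitin ligase that activates RIG-I, were 39.9 RPKM in P0, 31.2 in P1 and 32.1 in P2 of tumor 1, and 21.8, 17.4 and 21.3 RPKM in the same order in tumor 2. The groups of 3 libraries of each tumor did not overlap for these genes, and the ratios of *Trim25* were 1.83, 1.79 and 1.51. The members not given library by library include *Oasl2* (ratios of 20.0, 10.03 and 2.91 in P0, P1 and P2), *Ifi44* (11.8, 10.2 and 9.37), *Ifit2* (10.9, 34.6 and 5.92) and *Parp14* (2.27, 3.63 and 8.06). *Stat2*, *Adar*, *Xaf1*, *Tap1* and *Tap2* also stood higher in tumor 1 in each population, with ratios between 1.02 and 2.99.

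The exceptions were the immunoproteasome genes, the MHC class I chains and 4 others. Tumor 1 was not above tumor 2 in all 3 populations for *Irf1*, *Ifih1*, *Parp9*, *Gbp2*, *Psmb8*, *Psmb9*, *Psmb10*, *H2-K1*, *H2-D1* and *B2m*. None of the 3 immunoproteasome genes and none of the 3 MHC class I chains was among the 29. This compares with 3 of 3 peptide loading genes, 11 of 11 antiviral effectors and 5 of 5 double-stranded RNA enzymes. For *Psmb9* it rests on the P0 value of tumor 1 listed at 0. In P2 all 3 immunoproteasome genes stood higher in tumor 1, whereas *Psmb8* and *Psmb10* stood lower in P1. Some counts rest on near ties between tumor 1 and tumor 2. *Tapbp* counted at 58.2 against 57.4 RPKM in P0 and *Ifi35* at 9.77 against 9.50 in P2. *H2-D1* missed at 666 against 675 RPKM in P1. The 13 members with an ISRE core match had median differences between the tumors of 1.44, 1.69 and 1.61 in P0, P1 and P2. The 18 members with a window but no match had 0.83, 0.61 and 1.15, and the 8 without a window had 1.41, 1.76 and 1.87. Tumor 1 was above in all 3 populations for 10 of the 13, 12 of the 18 and 7 of the 8. The 18 include the immunoproteasome genes, *H2-K1* and *H2-D1*, so a match cannot be told apart from the role of a gene.

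**Figure D2:**
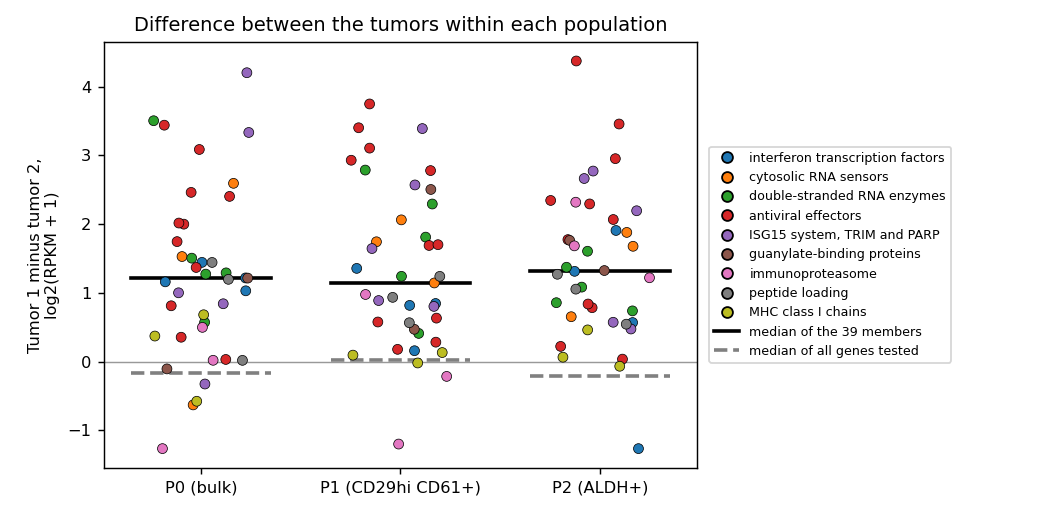
Difference between the tumors (tumor 1 minus tumor 2, log2(RPKM + 1)) of each member in each population, 1 point per gene and colored by role, spread sideways at random for legibility. The solid line is the median of the members (1.22, 1.15 and 1.31) and the dashed line that of all genes tested (-0.17, 0.03 and -0.21).

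Markers of other cell types followed another order. The leukocyte markers summed to a higher level in tumor 2 in each population, and their part in the difference of the interferon genes was not tested. Of the 13 markers, 11, 9 and 8 were listed at 0 in P0, P1 and P2 of tumor 1, against 0, 0 and 4 in tumor 2. Since *Psma2*, a proteasome gene that every cell needs, was also listed at 0 in P0 of tumor 1, a value listed at 0 there does not show that a gene was absent, and the sums of tumor 1 may be too low. Fibroblast markers summed to 0.929, 5.76 and 24.2 RPKM in tumor 1 and 3.61, 39.9 and 197 RPKM in tumor 2 for P0, P1 and P2. Fewer cells of a type and less RNA per cell cannot be told apart in such sorted bulk RNA.

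Comparisons between populations asked whether the members differed between BCSCs and bulk cells. No member passed limma's test on log2(RPKM + 1) with Benjamini-Hochberg adjustment over the 12512 genes at 0.05 in any comparison (0 of 39 in each), and limma called 0% of all genes in each of them. The limma voom test on recovered reads called 0 members as well. Unadjusted p-values under 0.05 were found for 0 members in P1 against P0, 1 in P2 against P0 and 1 in P1 against P2, beside 1.89%, 3.91% and 2.49% of all genes. These shares over all genes are under 5% in each comparison, and a lack of calls does not show that levels were equal. Exact permutation of 2 libraries against 2 cannot give a two-sided p under 0.333.

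ALDH+ cells (P2) stood higher than bulk cells of the same tumor for 16 of the 39 members in both tumors (41%), against 24.5% of all genes, and lower in both for 3 (*Trim25*, *Rtp4* and *Ifi35*), against 22.9%. The remaining 20 moved in opposite directions. The 16 were *Irf7*, *Irf9*, *Ddx58*, *Oas1a*, *Oas2*, *Mx1*, *Ifi44*, *Isg15*, *Usp18*, *Gbp3*, *Psmb8*, *Psmb9*, *Tap1*, *Tap2*, *Tapbp* and *B2m*. The median difference of the members, P2 minus P0, was 0.36, at 0.53 within tumor 1 and 0.18 within tumor 2, where the medians over all genes were 0, 0 and 0.05. Medians of fibroblast and macrophage markers were also higher in P2. The 4 tested of 5 fibroblast markers had a median difference of 2.71 (1.92 in tumor 1 and 3.54 in tumor 2), with 3 higher in both tumors and 2 with an unadjusted p under 0.05 from limma. The 4 tested of 8 macrophage markers in the table had a median of 0.66, with 2 higher in both tumors. In P1 against P0 the medians were 1.53 for fibroblast markers, with 4 higher in both tumors, and 0.63 for macrophage markers, with 1 higher in both. Other lists differed in P2: the only tested dendritic cell marker was lower in both tumors (-1.36), and the only tested T and NK cell marker was at -0.35. Of 4 basal markers, 3 moved in opposite directions. The part of other cell types in the values of the members was not tested.

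For *Irf7*, the transcription factor that amplifies type I interferon production, tumor 1 gave 11.99 RPKM in P0, 12.001 in P1 and 46.1 in P2, and tumor 2 gave 4.80, 6.23 and 11.5 RPKM. P2 was thus 3.84-fold above P0 in tumor 1 and 2.40-fold in tumor 2. The log2 fold change of P2 against P0 was 1.48 ± 0.72 (SE; limma, unadjusted p = 0.0727, adjusted p = 0.985). *Isg15* also had its highest value of each tumor in P2 (168 and 23.8 RPKM), by 1.60-fold over P0 in tumor 1 and 2.49-fold in tumor 2. In tumor 1, *Irf9*, which encodes a DNA-binding subunit of the complex that recognizes the ISRE, had 28.9, 25.7 and 35.01 RPKM in P0, P1 and P2, and in tumor 2 it had 11.9, 14.1 and 13.5 RPKM. The ratio of P2 to P0 was only 1.21 and 1.14 for this gene.

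*Psmb8*, which encodes the LMP7 catalytic subunit of the immunoproteasome, stood at 21.7, 18.0 and 68.4 RPKM in P0, P1 and P2 of tumor 1 and at 15.1, 21.1 and 28.8 RPKM in tumor 2. Both P2 libraries lay above both P0 libraries for 4 of the 39 members and 1778 of the 12512 genes tested. The reverse held for 1 member and 1631 genes. *Psmb8* was among the 4, and its P2 library was the highest in both tumors. Against P0 the log2 fold change in P2 was 1.25 ± 0.47 (SE; limma, unadjusted p = 0.0285, adjusted p = 0.985). It was the single member with an unadjusted p under 0.05 in P2 against P0 and also in P1 against P2 (-1.15 ± 0.47, unadjusted p = 0.0399, adjusted p = 1.00 from limma). The levels of *Psmb9*, which encodes the LMP2 subunit, were 0 RPKM in P0, 2.89 in P1 and 9.13 in P2 of tumor 1, and 1.40, 0.977 and 2.15 RPKM in the same order in tumor 2. The constitutive subunit gene *Psma2*, which every cell needs, was also listed at 0 in P0 of tumor 1 and at 23.2 to 49.2 RPKM in the other 5. Leaving out P0 of tumor 1 moved the log2 fold change of *Psmb9* in P2 against P0 from 1.87 to 1.23. For *Psmb10*, the gene of the third immunoproteasome subunit, MECL-1, tumor 1 gave 6.46 RPKM in P0, 2.31 in P1 and 25.3 in P2, and tumor 2 gave 6.36, 6.60 and 4.26 RPKM. P2 of tumor 1 was far above the other 5 libraries, and P2 of tumor 2 below its P0. The 14 constitutive proteasome genes had a median of 0.46 in P2 against P0, at 0.64 in tumor 1 and -0.07 in tumor 2. Of these, 4 stood higher and 2 lower in both tumors. Only *Psmb6* among the 14 had an unadjusted p under 0.05 there, as did 3.91% of all genes. Its log2 fold change was 0.79 (limma, unadjusted p = 0.0309, adjusted p = 0.985).

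In tumor 1, *Oas1a*, which encodes an enzyme that makes the RNase L activator upon RNA binding, had 8.34, 10.9 and 15.6 RPKM in P0, P1 and P2, and in tumor 2 it had 2.29, 4.05 and 8.18 RPKM. *Oas2*, another enzyme gene of that family, stood at 2.93, 6.13 and 5.39 RPKM in P0, P1 and P2 of tumor 1 and at 0.625, 1.03 and 2.83 RPKM in tumor 2. The P2 library was above P0 in both tumors for both genes, and the change within tumor 2 (3.57-fold and 4.52-fold) was larger than that within tumor 1 (1.88-fold and 1.84-fold). *Usp18* in P2 was at 1.05-fold of P0 within tumor 1 and at 11.2-fold within tumor 2, so that its difference lay in tumor 2. For *Ddx58* the ratios of P2 to P0 were 1.47 and 1.15, and for *Mx1* they were 2.74 and 1.50.

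Some members stood lower in ALDH+ cells. The levels of *Ifi35*, which encodes an interferon-induced leucine zipper protein, were 46.2 RPKM in P0, 26.1 in P1 and 9.77 in P2 of tumor 1, and 10.7, 17.2 and 9.50 RPKM in the same order in tumor 2. P2 was 0.211 of the P0 level in tumor 1 and 0.891 in tumor 2, with a log2 fold change of -1.14 ± 0.64 (SE; limma, adjusted p = 0.985). For *Irf1*, which encodes a transcription factor induced by interferon gamma, tumor 1 gave 17.0 RPKM in P0, 15.8 in P1 and 4.29 in P2, and tumor 2 gave 7.82, 14.0 and 11.7 RPKM. Here the P2 library was the lowest in tumor 1 and P0 the lowest in tumor 2. *Ifit1* was higher in P2 than in P0 of tumor 1 and lower in tumor 2, and the same held for *Rsad2*.

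A limma fit that took the tumor as replicate block gave 3 members an unadjusted p under 0.05 in P2 against P0 (adjusted p of at least 0.781), *Irf7* (unadjusted p = 0.0126), *Psmb8* (unadjusted p = 0.0153) and *Isg15* (unadjusted p = 0.0179), where 6.13% of all genes had such a p. The same limma fit gave 4 members in P1 against P2 (adjusted p of at least 0.949), adding *Bst2* (unadjusted p = 0.0391) to *Isg15* (unadjusted p = 0.00752), *Irf7* (unadjusted p = 0.0214) and *Psmb8* (unadjusted p = 0.0226), where 4.49% of all genes did. In P1 against P0 there were 0 members and 3.43% of all genes. After adjustment over all genes with the block, limma called 0 members in each comparison, while its share of all genes was 0.024% in P2 against P0 and 0% in both other comparisons.

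**Figure D3:**
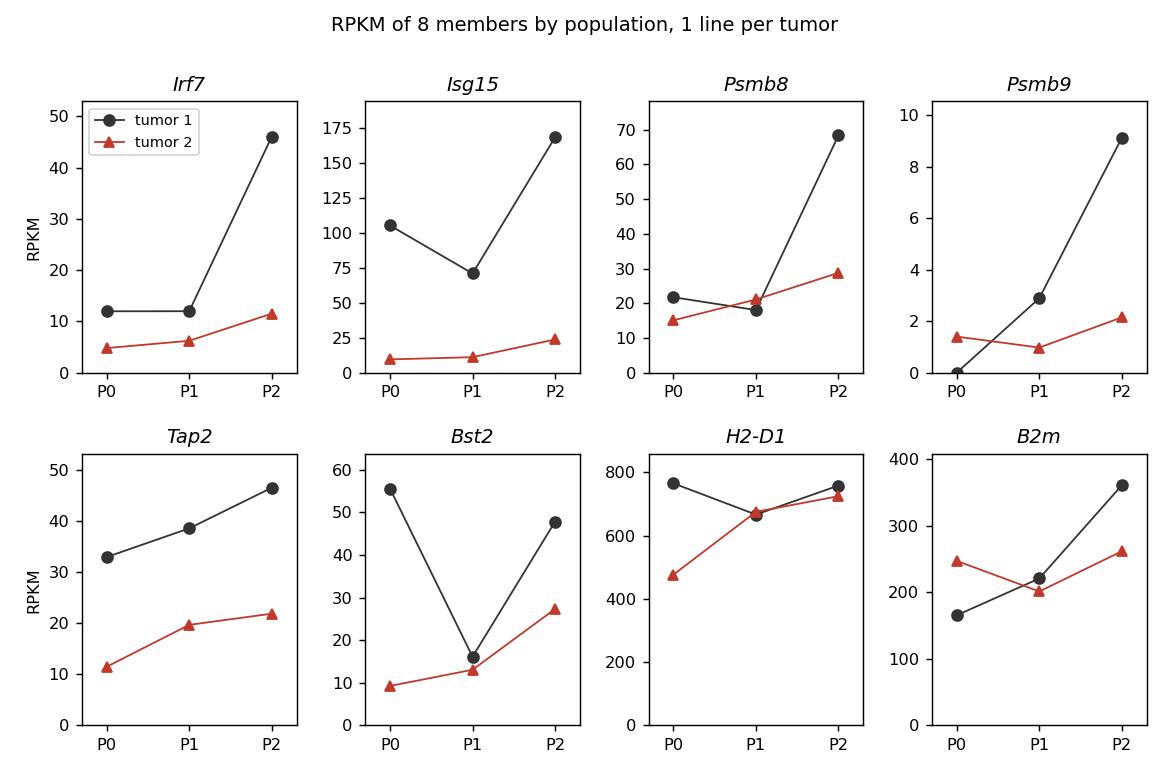
RPKM of 8 members in the 3 populations, with 1 line per tumor and axes starting at 0. The genes were picked after the values were seen, to show values above P0 in P2 of both tumors (*Irf7*, *Isg15*, *Psmb8*, *Tap2*), the value listed at 0 (*Psmb9*), opposite directions (*Bst2*) and MHC class I chains (*H2-D1* and *B2m*).

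In CD29hi CD61+ cells (P1) the counts of members lay closer to those of all genes. P1 was above P0 in both tumors for 13 of the 39 members (33.3%), against 29.2% of all genes, and below in both for 5 (*Dhx58*, *Adar*, *Rsad2*, *Rtp4* and *Trim25*), against 17.6%. The other 21 moved in opposite directions. The median difference of the members was 0.15, at 0.13 in tumor 1 and 0.14 in tumor 2, beside 0.12, 0.15 and 0.04 over all genes. The 13 higher members were *Stat2*, *Irf7*, *Ddx58*, *Oas1a*, *Oas2*, *Ifit1*, *Samhd1*, *Usp18*, *Parp14*, *Gbp3*, *Tap1*, *Tap2* and *Tapbp*. Some of these rest on near ties in tumor 1, with P1 at 1.001-fold of P0 for *Irf7* and 1.03-fold for *Ifit1*. Median-ratio scaling puts both genes below P0 there, as it does *Tap1*.

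In tumor 1, *Gbp3*, which encodes a guanylate-binding protein of the response to intracellular microbes, had 3.13, 10.7 and 5.28 RPKM in P0, P1 and P2, and in tumor 2 it had 0.778, 1.06 and 0.848 RPKM. The P1 library was the highest of each tumor. *Ifit3*, a partner gene of *Ifit1*, stood at 3.28, 16.4 and 14.2 RPKM in P0, P1 and P2 of tumor 1 and at 2.34, 1.53 and 2.10 RPKM in tumor 2. P1 was 5.001-fold above P0 in tumor 1 and 0.653 of P0 in tumor 2, and *Mx1* showed 5.08-fold and 0.335. The levels of *Bst2*, which encodes tetherin, a membrane protein that holds budding virus, were 55.6 RPKM in P0, 16.1 in P1 and 47.9 in P2 of tumor 1, and 9.26, 13.1 and 27.4 RPKM in the same order in tumor 2. P1 stood at 0.290 of P0 in tumor 1 but 1.41-fold above it in tumor 2. For *Samhd1*, which encodes an enzyme that degrades deoxynucleotides, tumor 1 gave 20.8 RPKM in P0, 28.0 in P1 and 20.6 in P2, and tumor 2 gave 11.4, 17.7 and 17.5 RPKM. This gene was higher in P1 than in P0 by 1.35-fold and 1.55-fold. In tumor 1, *Gbp2*, the other guanylate-binding protein gene, had 24.3, 31.8 and 38.9 RPKM in P0, P1 and P2, and in tumor 2 it had 26.3, 22.6 and 14.9 RPKM. The values of *Gbp2* showed no shared order of populations. Reads of *Gbp2* and *Gbp3*, of *Ifit3* and its near copy, and of *Oas1a* and its family may be split between paralogs, so that their levels are uncertain.

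**Figure D4:**
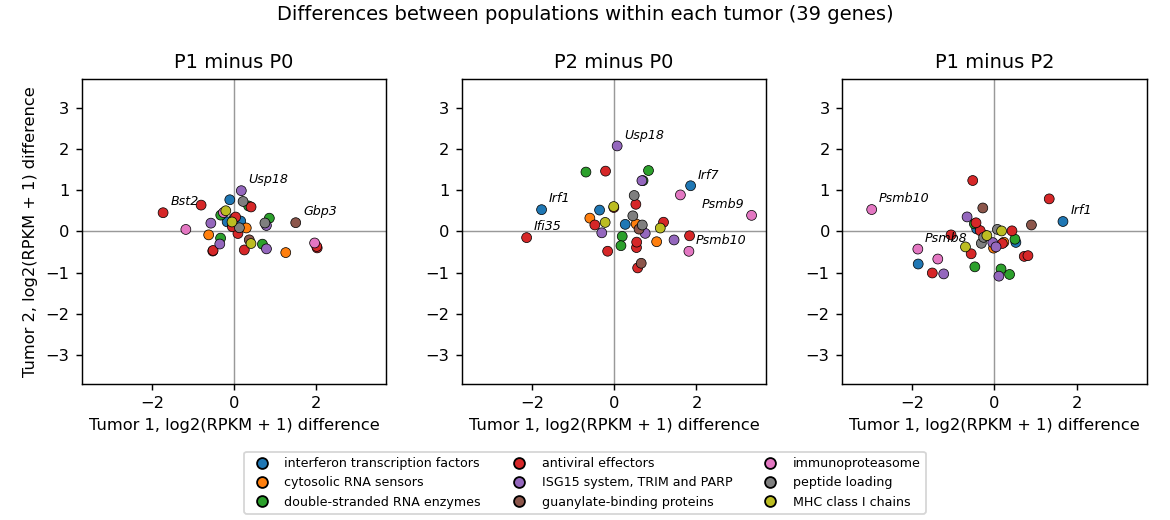
Differences between populations of each member within tumor 1 (horizontal) and within tumor 2 (vertical), as log2(RPKM + 1), in 3 panels. Points in the upper right quadrant stood higher in both tumors (13 members for P1 minus P0, 16 for P2 minus P0 and 6 for P1 minus P2), and those in the lower left stood lower in both (5, 3 and 15).

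Both BCSC populations were also set against each other. P1 stood lower than P2 in both tumors for 15 of the 39 members (38.5%), against 21.5% of all genes, and higher in both for 6 (*Irf1*, *Samhd1*, *Ifi35*, *Gbp3*, *Tapbp* and *H2-K1*), against 31%. The members that were lower in P1 were *Irf7*, *Ddx58*, *Dhx58*, *Oas1a*, *Rsad2*, *Bst2*, *Ifi44*, *Isg15*, *Trim25*, *Psmb8*, *Psmb9*, *Tap1*, *Tap2*, *H2-D1* and *B2m*. The median difference, P1 minus P2, was -0.16 (-0.23 in tumor 1 and -0.26 in tumor 2), where all genes had 0.11, 0.17 and 0. Since P2 libraries enter both this comparison and that with P0, the counts for P2 are not independent of each other. Within tumor 1, *Irf7* in P1 was at 0.261 of its P2 level, and within tumor 2 at 0.540. *Isg15* in P1 was at 0.421 and 0.467 of P2, and *Bst2* at 0.337 and 0.478.

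MHC class I chains were the most abundant members. *H2-D1*, which encodes a class I heavy chain, stood at 765, 666 and 758 RPKM in P0, P1 and P2 of tumor 1 and at 476, 675 and 724 RPKM in tumor 2. Bulk cells had a mean of 621 ± 204 RPKM, P1 cells of 671 ± 6.19 and P2 cells of 741 ± 23.7 (SD, n = 2), and the lowest library was P0 of tumor 2. The heavy chain gene *H2-K1* ranged from 274 to 355 RPKM over the 6 libraries, and both limits were P0 libraries, so the P1 and P2 values lay within the range of the bulk cells. *B2m* ranged from 166 to 361 RPKM. Its mean reached 206 ± 57.8 RPKM for P0, 211 ± 13.8 for P1 and 311 ± 70.2 for P2 (SD, n = 2), with P2 the highest library of each tumor. These heavy chain genes have close copies: *H2-Q7* stood at 0.64 to 0.706 of *H2-Q6* in all 6 libraries and *H2-T22* at 0.546 to 0.612 of *H2-T23*. The ratios varied more for *H2-D1* to its close copy *H2-L* (0.711 to 0.912) and for *H2-K1* to *H2-D1* (0.401 to 0.574). Reads may be shared among copies, so the levels of *H2-K1* and *H2-D1* are uncertain. The MHC alleles of FVB/N also differ from those of the reference strain.

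By RPKM, the transporter and loading genes stood higher in both BCSC populations within both tumors, though by little for *Tap1* in P1. *Tap1* and *Tap2* encode the subunits of the peptide transporter and *Tapbp* encodes tapasin, which links it to class I molecules. The levels of *Tapbp*, the highest of the 3, were 58.2 RPKM in P0, 98.7 in P1 and 93.9 in P2 of tumor 1, and 57.4, 66.3 and 64.0 RPKM in the same order in tumor 2. P1 was 1.70-fold and 1.16-fold above P0, and P2 1.61-fold and 1.12-fold. *Tap2* ranged from 11.5 to 46.5 RPKM, with P1 at 1.17-fold of P0 in tumor 1 and 1.71-fold in tumor 2, and P2 at 1.41-fold and 1.90-fold. *Tap1* ranged from 3.52 to 13.2 RPKM, with P1 at 1.11-fold of P0 in tumor 1 and 1.08-fold in tumor 2, and P2 at 1.41-fold and 1.385-fold. Limma gave none of these genes an unadjusted p under 0.05 in either comparison with P0. Median-ratio scaling divides P0 of tumor 1 by 0.985 and P1 of tumor 1 by 1.095, which puts *Tap1* in P1 slightly below P0 there. For *Tap1* and *Tap2* the tumors differed more than the populations, and the 2 libraries of each population overlapped with those of the others.

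Other genes of the pathway were counted in lists chosen with earlier results known. Of 55 other interferon-stimulated genes, 52 were in the table and 46 were tested, of which 23 stood higher in P2 than in P0 in both tumors and 4 lower (24.5% and 22.9% of all genes), and 20 stood higher in P1 and 9 lower (29.2% and 17.6% of all genes). The same shares of all genes are the background of the smaller lists that follow, several of which lie near them. Their median was 0.31 in P2 and 0.28 in P1, and limma called 0 after adjustment. *Ifitm3*, which encodes a membrane protein that restricts virus entry, stood at 70.8, 83.5 and 213 RPKM in P0, P1 and P2 of tumor 1 and at 32.5, 56.5 and 78.5 in tumor 2, with a log2 fold change of 1.41 in P2 (limma, unadjusted p = 0.0313, adjusted p = 0.985). *Ifitm2* (0.95), *Lgals3bp* (1.34) and *Ifi27l2a* (2.17) were the other genes of this list with an unadjusted p under 0.05 in P2 against P0, which 3.91% of all genes had, and *Ifi27l2a* was listed at 0 in P0 of tumor 1. In P1 against P0 *Ifi27l2a* had a log2 fold change of 2.09 (limma, unadjusted p = 0.0242). It was the only gene of this list with such a p there, which 1.89% of all genes had.

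Of the 46 tested genes of this list, 20 stood higher in tumor 1 in all 3 populations and 1 lower (13.7% and 21.6% of all genes). The 11 interferon receptor, kinase and STAT genes were all tested, and 6 stood higher and 0 lower in P2 than in P0 in both tumors. Among 21 tested genes of other MHC class I and antigen processing functions, 5 stood higher and 6 lower in P2 than in P0 in both tumors, and *Erap1*, which trims peptides, was the only one with an unadjusted p under 0.05 in P1 against P2, at a log2 fold change of 1.36 (limma, adjusted p = 1.00). Of 10 tested genes for nucleic acid sensing, 4 stood higher and 1 lower in P2 in both tumors, and of 6 negative regulators 0 stood higher and 3 lower. Of 5 tested MHC class II genes, 4 stood higher in P1 than in P0 in both tumors and 1, *H2-DMa*, lower. Among them, *H2-Aa* and *H2-Ab1* had log2 fold changes of 2.26 and 1.99 in P1 against P0 (limma, unadjusted p = 0.0204 and 0.0218, adjusted p = 1.00 each), and both were listed at 0 in P0 of tumor 1. An unadjusted p under 0.05 was found for 1.89% of all genes in this comparison. *Cd74* and *H2-DMb1*, the other higher genes, were also listed at 0 in P0 of tumor 1. The direction of all 4 within tumor 1 is thus uncertain.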

How the data were processed

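Poly(A) RNA of 3 sorted populations from 2 tumors was sequenced on an Illumina HiSeq after WaferGen PrepX library preparation, and aligned with the standard Illumina pipeline. The genome build, annotation and counting tool are not given in the sources used here. The authors deposited RPKM values, that is reads relative to the length of a gene and the total of a library, for 6 libraries. In addition the authors deposited mean values of P0 and of P1, a signal of reads divided by a size factor per library, which served only to solve gene lengths. Its remaining columns (the authors' fold change and p-values for P1 against P0) were not used. Reads recovered with a tolerance of 0.01 reads were whole for 100% of values, and a value of 0 allows up to 3 reads, which covers counting error only.

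Populations were compared with limma 3.58.1 (R 4.3.3; empirical Bayes with trend, two-sided) on log2(RPKM + 1), over the 12512 named genes that reached 1 RPKM in 2 or more libraries. A single model held all 6 libraries, with Benjamini-Hochberg adjustment over all genes and a threshold of 0.05. This main model had no term for the tumor, so its standard errors and p-values include differences between the tumors. Fold changes on this scale understate those of low genes. Within-tumor differences are described without a test. The libraries are paired by tumor, from the labels. Deviations from the group means of same-tumor libraries correlated at 0.185 (P0 and P1), 0.211 (P0 and P2) and 0.242 (P1 and P2) across 12512 genes. Nothing states that the 2 libraries of a group are from different mice, so p-values measure only the spread between these libraries. Alternatives were a pseudocount of 0.1, no filter, median-ratio scaling, the tumor as replicate block, voom on recovered reads, only the compared libraries, and each library left out. Voom with the block was added after seeing the data. Members and lists were chosen with earlier results of these data known. Values of all 6 libraries are given for members with the highest mean of their role, among the 5 largest or 5 smallest fold changes of a comparison, with an unadjusted p under 0.05, or listed at 0 in a library. Promoter windows came from RefSeq (GRCm38.p6) and were searched with Python 3.11.15.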

Additional observations from a re-analysis of the deposited data

Results flagged for a closer look

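Members moved in opposite directions in the tumors in 21 of 39 cases for P1 against P0 (49.9% of all genes tested did so), in 20 for P2 against P0 (45.3%) and in 18 for P1 against P2 (43.9%). Each such gene stood higher in one tumor and lower in the other, with 1 library of each population per tumor, and the difference between the tumors was not tested.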

How the results depend on the processing

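In every alternative run, 0 members were called after adjustment in the 3 comparisons. Over all genes, the pseudocount of 0.1 called 2 in P2 against P0, voom called 9 in P1 against P0, 1 in P2 against P0 and 7 in P1 against P2, and voom with the tumor as replicate block called 4, 6 and 16. With the tumor as replicate block, limma called 3 genes in P2 against P0 and 0 in both other comparisons, and the block gave 3 members in P2 against P0 and 4 in P1 against P2 an unadjusted p under 0.05, in place of 1 and 1. Voom with the block gave 4, 7 and 7 members such a p. Voom alone gave 2 in P1 against P2, and a fit of only the compared libraries gave 3 there. The shares of all genes with such a p under these fits are not given here, so these counts cannot be set against a background. The median of the members in P1 against P0 was 0.065 with median-ratio scaling, 0.13 with voom and 0.14 with voom and the block. In P1 against P2 it was -0.19 with a pseudocount of 0.1, -0.24 with median-ratio scaling and -0.075 with voom. *Ifit1* changed sign with voom and the block, to 0.33 in P2 against P0 and -0.22 in P1 against P2.

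Leaving out 1 library leaves a population with 1 tumor, whose lone library is assumed to vary like the other groups, and the members stood higher in tumor 1. Their median then ran from -0.42 to 0.85 in P1 against P0, from -0.28 to 1.02 in P2 against P0 and from -0.93 to 0.53 in P1 against P2. Counts of members with an unadjusted p under 0.05 ran from 0 to 1, 0 to 5 and 0 to 4. Genes called over the whole table ran from 0 to 40 in P2 against P0 and from 0 to 55 in P1 against P2, the highest in both without P2 of tumor 2. With a library left out, in P1 against P0, the log2 fold changes ran from -0.40 to 2.11 for *Gbp3*, -1.05 to 2.70 for *Mx1*, -0.58 to 2.201 for *Ifit3*, -0.32 to 1.497 for *Oas2*, -1.87 to 0.60 for *Bst2*, -1.16 to 0.037 for *Psmb10*, -2.22 to 1.22 for *Rsad2*, -1.36 to 0.39 for *Rtp4* and -1.65 to 0.95 for *Dhx58*. Likewise in P2 against P0, the log2 fold changes ran from -1.03 to 3.18 for *Usp18*, -1.25 to 0.013 for *Irf1*, -1.36 to 0.71 for *Rtp4*, -0.59 to 0.25 for *Trim25* and -1.89 to 1.57 for *Ifit1*, and in P1 against P2, the log2 fold changes ran from -0.73 to 1.78 for *Gbp3*, -1.38 to 2.08 for *Ifit1*, -0.10 to 0.54 for *Samhd1* and -2.52 to 0.25 for *Isg15*. The other 12 of 30 named fold changes kept their direction under all alternatives. Median-ratio scaling gave 30 in place of 29 members above in tumor 1. Few reads stood behind some low values, with 17 to 33 for *Psmb9* and 16 to 175 for *Usp18* in tumor 2.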
